A study of Mus musculus with 12 samples.

Results

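Integrins are surface receptors made of 1 alpha and 1 beta subunit, and the pairing sets what a cell adheres to. On lymphocytes the beta 2 integrins bind ICAM proteins on other cells, alpha 4 with beta 1 or beta 7 binds VCAM-1, fibronectin and the gut vessel ligand MAdCAM-1, and alpha E with beta 7 binds E-cadherin on epithelium. The transcripts of 10 integrin subunits were followed in splenic CD4 T cells of mice with and without CD4-cre acting on floxed alleles of the transcription factor Ets1. They were the alpha subunits Itgae, Itgam, Itgal, Itga4, Itga6 and Itgav and the beta subunits Itgb7, Itgb2, Itgb1 and Itgb3, taken by gene symbol from the expression tables, where they are 10 of 23224 named features. All 120 values, 1 per gene and library, came from an entry that held that gene alone.

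The cells came from spleens of C57BL/6 mice that all carried floxed Ets1 alleles. Mice with no Cre transgene are the controls (WT), and mice that also carried CD4-cre, which acts in developing T cells of both the CD4 and the CD8 lineage, are labelled as knockouts (KO stands for that label throughout). CD4 cells positive for CXCR5 and PD-1 were sorted as T follicular helper (TFH) cells, the helpers of B cells in germinal centres, and cells negative for both as non-TFH cells. Each genotype gave 3 libraries per sorted population, 12 libraries in 4 groups. The labels give no age and do not say whether the 3 libraries of a group came from separate mice, so p-values measure only the spread between these libraries, which may be technical.

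Levels are FPKM, fragments per kilobase of transcript relative to all mapped fragments, scaled between libraries. The estimated depth was 11.9 to 15.5 M fragments per library. Ets1 itself was listed at 401 to 410 scaled FPKM in WT non-TFH, 379 to 413 in KO non-TFH, 170 to 214 in WT TFH and 223 to 270 in KO TFH libraries, so it was not lower under KO. Its KO against WT difference did not pass in non-TFH cells (-0.03 ± 0.10 on the log2 scale, adjusted p = 0.912), and in TFH cells it rose by 0.37 ± 0.10 (adjusted p = 0.0148). Exons outside a floxed segment still count toward a whole-gene value, which is therefore no check of the deletion. The sort labels were in place: the summed level of 7 TFH markers was 26.5 to 39.8 in the 6 non-TFH libraries and 799 to 1360 in the 6 TFH libraries, and Cd4 averaged 205 to 357 over the groups. Macrophage markers did not keep to 1 level. Their summed level (15 genes) was 16.7 to 30.2 in WT non-TFH, 41.2 to 55.2 in KO non-TFH, 1330 to 2470 in WT TFH and 237 to 330 in KO TFH libraries, with none of the 15 at 0 in all libraries of a group. Not in the sum were Cd68 and Ly6c2, which had no entry of their own, and Lyz2, which had no value in 1 library. Lyz2 went the other way in TFH cells, from a mean of 283 in WT to 608 in KO libraries.

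Promoter windows were at hand for 5 of the 10 genes (RefSeq, GRCm38.p6, the build that mm10 names). Shown here are the windows of 4 genes that rose or fell under KO in non-TFH cells, as the stretch an ETS factor could bind next to the start site. Each runs 5′ to 3′ on the gene's strand over the 250 bases that end 1 base before the start site, on the plus strand at chr7:128062390-128062639 for Itgam, chr8:128685404-128685653 for Itgb1 and chr2:79255176-79255425 for Itga4, and on the minus strand at chr15:102231936-102232185 for Itgb7. Capitals mark GGAA, the core that ETS factors bind, or its reverse complement TTCC, and in Itgb1 also the longer word around it.
Itgam: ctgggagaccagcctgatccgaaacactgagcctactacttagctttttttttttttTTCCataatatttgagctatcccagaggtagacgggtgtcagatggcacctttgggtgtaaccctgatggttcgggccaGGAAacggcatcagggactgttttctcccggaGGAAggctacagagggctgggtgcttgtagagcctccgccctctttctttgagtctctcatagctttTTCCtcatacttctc
Itgb1: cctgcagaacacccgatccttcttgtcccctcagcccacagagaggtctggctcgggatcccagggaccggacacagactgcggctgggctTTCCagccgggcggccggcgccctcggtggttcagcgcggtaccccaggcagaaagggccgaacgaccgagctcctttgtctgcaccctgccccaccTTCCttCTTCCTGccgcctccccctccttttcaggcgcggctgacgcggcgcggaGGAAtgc
Itgb7: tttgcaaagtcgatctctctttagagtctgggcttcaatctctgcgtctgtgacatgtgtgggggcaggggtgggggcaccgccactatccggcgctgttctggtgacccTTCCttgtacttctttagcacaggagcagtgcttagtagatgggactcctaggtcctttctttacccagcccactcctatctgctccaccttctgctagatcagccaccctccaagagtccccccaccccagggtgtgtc
Itga4: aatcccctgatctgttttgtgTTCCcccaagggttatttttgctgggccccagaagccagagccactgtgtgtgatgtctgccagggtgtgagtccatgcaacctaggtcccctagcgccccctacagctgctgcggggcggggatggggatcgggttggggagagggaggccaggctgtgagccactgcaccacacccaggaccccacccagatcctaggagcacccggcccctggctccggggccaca
GGAA occurred on either strand 4 times in the Itgam window, 4 times in that of Itgb1, and once each in those of Itgb7 and Itga4. The Itgav window (not shown) held 4. Of all 32851 promoter windows of this length, 93.4% held the word, with a median of 3 matches, so its presence sets no gene apart. The longer words CAGGAAG and CCGGAAG, each of which contains GGAA, were found in 10.8% and 6.91% of all windows. CAGGAAG occurred once among the 5 genes, on the reverse strand in Itgb1 with its leftmost base as printed 56 bases before the start site, and CCGGAAG in none of them. A match describes the letters of a window and is not evidence of binding.

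The level of the 10 genes spanned more than 100-fold within each group, and their order changed with cell type and genotype. WT non-TFH cells were led by Itgb7 with 40.4% ± 0.373 (SD, n = 3) of the summed level of the 10 genes, followed by Itgb2 with 22.8% and Itgal with 15.03%. In WT TFH cells Itgb2 led with 30.1% ± 4.17, ahead of Itgb7 with 25.1%, Itgal with 20.4% and Itgb1 with 18.8%. In KO libraries Itgb7 made 50.7% ± 2.06 of the sum in non-TFH cells and Itgb1, as the highest of the 10, made 32.3% ± 2.18 in TFH cells. By level, Itgae ranked 10 of the 10 genes in WT non-TFH and 4 in KO non-TFH cells. Itgam ranked 10 in WT TFH and 5 in KO TFH cells.

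**Figure D1:**
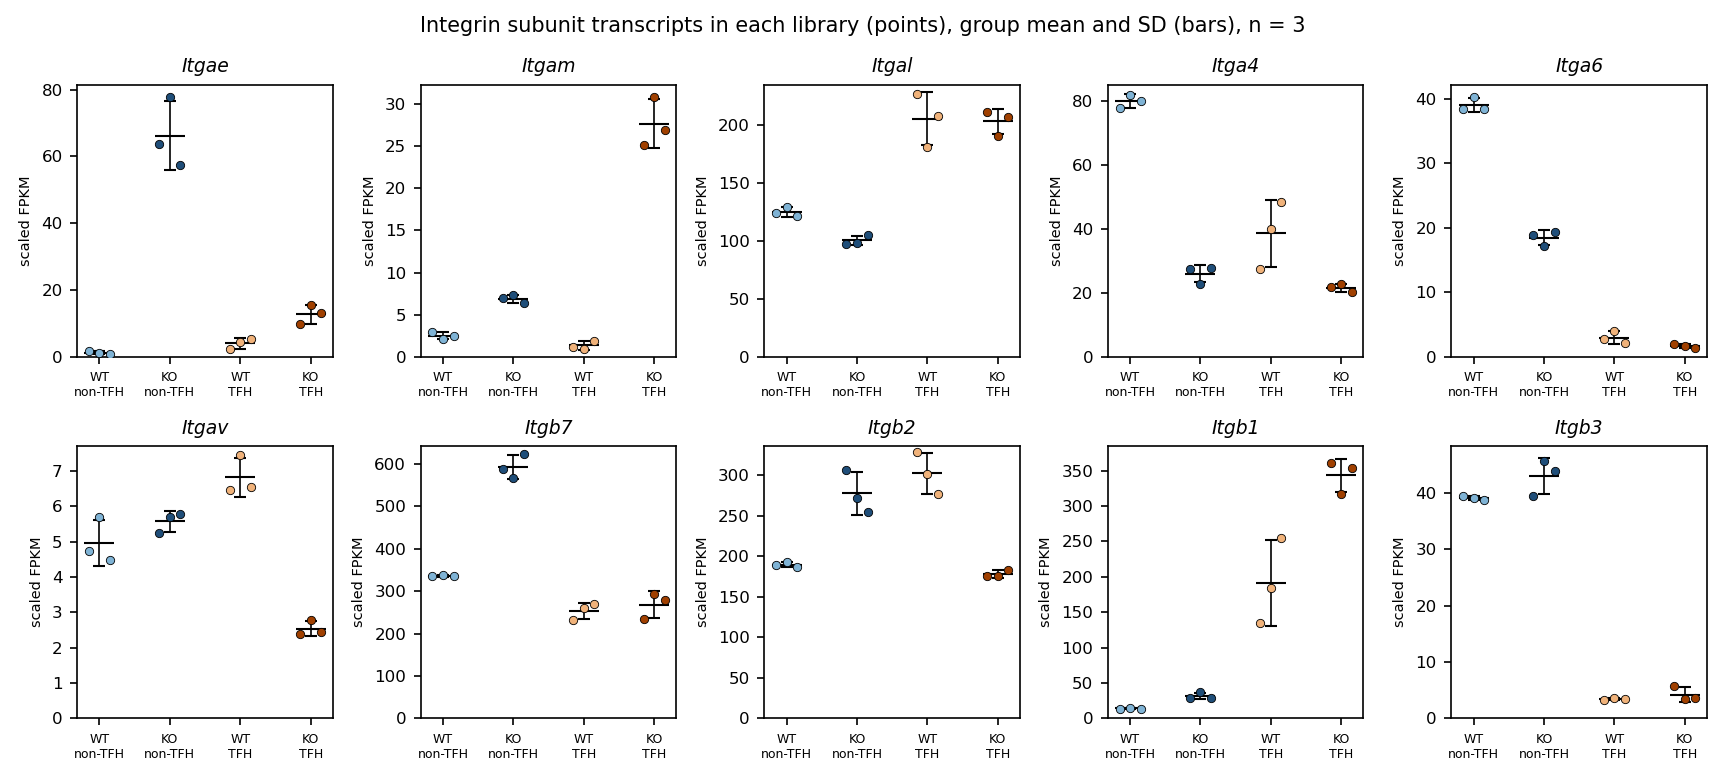
Each panel plots 1 integrin subunit as scaled FPKM (linear axis from 0) in the 12 libraries, with a point per library and the group mean and SD as bars. Itgae stood highest in KO non-TFH (57.5 to 77.7) and Itgam in KO TFH libraries (25.1 to 30.8), while Itgb3 and Itga6 stood high in non-TFH and low in TFH cells of both genotypes.

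The first comparison asks what differs between KO and WT mice in each sorted population. In non-TFH cells 5 of the 10 subunits rose, 3 fell and 2 did not pass the test, against 20.4% of all 11098 features tested that passed, 11.8% higher and 8.6% lower (limma on log2(scaled FPKM + 1), Benjamini-Hochberg adjusted p under 0.05). KO and WT libraries did not overlap for 8 of the 10, as for 51.7% of features. In TFH cells 3 rose, 4 fell and 3 did not pass, where 30.9% of features passed (15.8% higher, 15.1% lower), and 7 did not overlap, where 37.5% of features did not. Their median log2 change was 0.34 in non-TFH and 0.03 in TFH cells, beside 0.03 and 0.04 over all features. With 3 libraries against 3, an exact permutation test of 1 gene cannot give a two-sided p below 0.1, which is the value of every pair of groups that did not overlap.

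Itgae encodes alpha E, CD103, which pairs with beta 7 and marks T cells lodged in epithelium and subsets of regulatory T cells. It was listed at 1.86, 1.08 and 0.816 scaled FPKM in the WT non-TFH libraries and at 63.6, 77.7 and 57.5 in the KO non-TFH libraries. In TFH cells it was at 2.27, 4.58 and 5.37 in WT and at 9.81, 15.4 and 13.1 in KO libraries. The 4 groups did not overlap, and KO non-TFH stood highest, then KO TFH, WT TFH and WT non-TFH. The rise under KO was 4.92 ± 0.27 (log2 change ± SE) in non-TFH cells (adjusted p = 1.9e-07), from a mean of 1.25 ± 0.544 to 66.2 ± 10.4 (SD, n = 3), or 52.9-fold. In TFH cells it rose by 1.47 ± 0.27 (adjusted p = 0.00149), from 4.07 ± 1.62 to 12.8 ± 2.83. The deposited 95% bounds of the WT non-TFH values were wide, for example 0 to 5.96 FPKM around 0.926 in replicate 2, while those of the KO non-TFH values lay within 5.85% of the value. The size of the non-TFH fold therefore rests on a poorly measured low level.

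Marker genes of other cell types also differed between KO and WT non-TFH libraries. The summed level of 5 CD8 T cell markers was 110 to 125 in KO and at most 20.8 in WT non-TFH libraries, of which Cd8b1 made 101 and 11.8, while Cd8a, the other CD8 chain, was at 0.258 and 0.0867. Of those 5 markers 2 rose, 1 fell and 2 did not pass, and Crtam, an adhesion molecule of activated T cells, was the one that fell (4.58 ± 0.323 in WT to 0.459 ± 0.138 in KO). The dendritic cell list (10 genes) summed to 100 to 111 in KO and 1.01 to 2.84 in WT non-TFH libraries. Ccr9, a gut homing chemokine receptor of that list that T cells also use, was listed at 0 in every WT and at 103 ± 5.25 in KO non-TFH libraries and made nearly all of that sum. The 4 summed NK cell markers stood at 16.8 to 24.1 in KO and 2.98 to 4.89 in WT libraries, with Eomes, which T cells can also make, at 14.8 and 1.07. Eomes is also among the 5 CD8 T cell markers, so both sums hold it. Of 5 NK cell markers tested 1 rose and 4 did not pass in non-TFH cells. Foxp3, on the regulatory T cell list, had no entry of its own and was neither tested nor summed. Of 5 other regulatory T cell markers tested 2 rose and 3 did not pass. Without Ikzf4, 4 of them summed to 24.4 to 34.0 in WT and 42.9 to 68.0 in KO non-TFH libraries. In TFH cells, where Itgae also rose, 3 of these 5 fell and the sum was lower in KO libraries (143 to 178) than in WT libraries (270 to 295). The part of these cell types in the Itgae values was not tested. In bulk RNA a change in the number of cells that express a gene and a change in the RNA per cell cannot be told apart.

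Itgb7 encodes beta 7, the partner of alpha E and alpha 4. It stood at 335, 339 and 335 in WT non-TFH, 588, 568 and 623 in KO non-TFH, 231, 261 and 269 in WT TFH and 234, 293 and 278 in KO TFH libraries. The KO non-TFH group stood above all others, WT non-TFH came next, and both TFH groups overlapped. Under KO it rose in non-TFH cells by 0.82 ± 0.09 on the log2 scale (adjusted p = 5.23e-05), which became 0.51 with quantile normalization. The difference in TFH cells did not pass (0.08, 95% interval -0.12 to 0.28, adjusted p = 0.561).

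Itga4 encodes alpha 4, CD49d, the chain that VLA-4 and the gut homing receptor share. Its values were 77.8, 82.1 and 80.1 in WT non-TFH, 27.5, 22.9 and 27.8 in KO non-TFH, 27.5, 40.0 and 48.5 in WT TFH and 21.7, 22.8 and 20.2 in KO TFH libraries. WT non-TFH stood above the rest, and the lowest WT TFH library reached into the KO non-TFH range. Under KO it fell by 1.59 ± 0.17 on the log2 scale in non-TFH (adjusted p = 3.65e-05) and by 0.78 ± 0.17 in TFH cells (adjusted p = 0.00464). Within non-TFH cells Itga4 was thus the beta 7 partner that was lower under KO and Itgae the one that was higher. The ratio of Itgae to Itgb7 went from 0.00373 ± 0.00163 in WT to 0.112 ± 0.0226 in KO non-TFH cells and that of Itga4 to Itgb7 from 0.238 ± 0.00528 to 0.0439 ± 0.0033 (SD, n = 3).

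**Figure D2:**
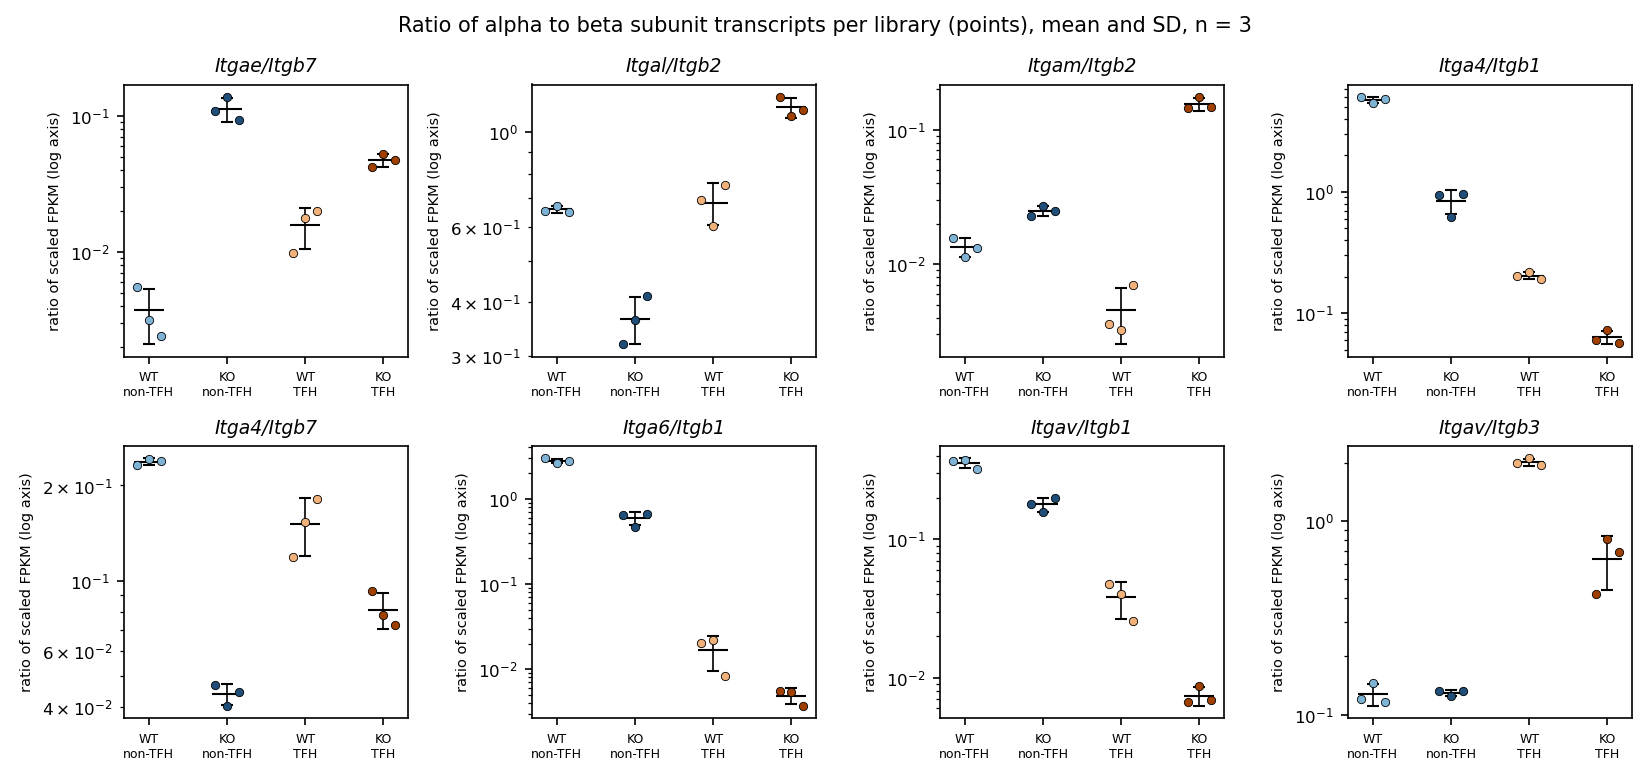
Each panel plots the ratio of an alpha to a beta subunit in scaled FPKM (log axis) in the 12 libraries, with a point per library and the mean and SD as bars. The ratio of Itgae to Itgb7 was highest in KO non-TFH libraries (0.0923 to 0.137) and that of Itgam to Itgb2 in KO TFH libraries (0.144 to 0.175), while Itga4 to Itgb1 went from 5.40 to 6.03 in WT non-TFH to 0.0572 to 0.0721 in KO TFH libraries.

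Itgam encodes alpha M, CD11b, which with beta 2 forms the complement receptor Mac-1 of macrophages, neutrophils and NK cells. Its level was 2.96, 2.16 and 2.47 in WT non-TFH, 6.93, 7.32 and 6.35 in KO non-TFH, 1.17, 0.973 and 1.92 in WT TFH and 25.1, 30.8 and 26.95 in KO TFH libraries. No groups overlapped, KO TFH was highest and WT TFH lowest. In TFH cells it rose under KO by 3.62 ± 0.17 on the log2 scale (adjusted p = 1.28e-07), from 1.35 ± 0.5 to 27.6 ± 2.9, or 20.4-fold. The rise in non-TFH cells was 1.16 ± 0.17 (adjusted p = 0.000493). The bounds deposited with the WT non-TFH values were wide, up to 0 to 20.9 FPKM around 1.85 in replicate 2, and those of KO non-TFH replicate 3 ran from 0.173 to 11.4.

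Marker lists of macrophages and monocytes, neutrophils and NK cells were followed beside Itgam. Ly6c2, on the macrophage and monocyte list, and Ly6g, on the neutrophil list, had no entry of their own. Of 16 macrophage and monocyte markers tested in TFH cells, 15 fell and 1 rose under KO, with a median log2 change of -2.42. Csf1r, the receptor for the macrophage growth factor CSF-1, was at 152 ± 30.3 in WT TFH and 19.3 ± 2.02 in KO TFH libraries, and Adgre1, which encodes the macrophage antigen F4/80, at 41.9 ± 12.01 and 5.43 ± 2.57. The marker that rose, Lyz2, a lysozyme of myeloid cells, went from 283 ± 8.02 (SD, n = 2, as 1 library had no value) to 608 ± 143.6 (SD, n = 3). Of 7 neutrophil markers tested 0 rose, 1 fell and 6 did not pass in TFH cells, with a median log2 change of 0.10. The 9 summed neutrophil markers stood at 2.43 to 21.3 in WT TFH and 3.05 to 12.3 in KO TFH libraries. Elane was at 0 in every KO TFH library, and Mpo and Retnlg were at 0 in every WT TFH library. The 4 summed NK markers were at 6.58 to 7.98 in WT TFH and 3.45 to 6.59 in KO TFH libraries. Of 5 NK markers tested 1 rose, 3 fell and 1 did not pass in TFH cells. Ncr1, an NK cell receptor, went from 0.13 ± 0.182 in WT TFH to 1.37 ± 0.727 in KO TFH libraries. In non-TFH cells, by contrast, the macrophage sum was higher in KO libraries, together with Itgam. The part of these cell types in the Itgam values was not tested.

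The beta 2 partners next to Itgam on chromosome 7 did not rise with it in TFH cells. Itgam lies at chr7:128062640-128118491, Itgax at chr7:128129547-128150657 and Itgad at chr7:128154376-128223816, all on the plus strand (GENCODE vM21, GRCm38). Itgad, alpha D, a subunit of splenic macrophages, stood at 20.1, 46.2 and 17.1 in WT TFH and at 3.73, 4.65 and 3.52 in KO TFH libraries and fell by 2.41 ± 0.31 on the log2 scale (adjusted p = 0.000127). Itgax, alpha X, CD11c, of dendritic cells and macrophages, was at 7.53, 4.68 and 2.19 in WT TFH and 4.95, 2.32 and 1.45 in KO TFH libraries, which overlapped, and its change of -0.56 ± 0.39 did not pass (adjusted p = 0.31).

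**Figure D3:**
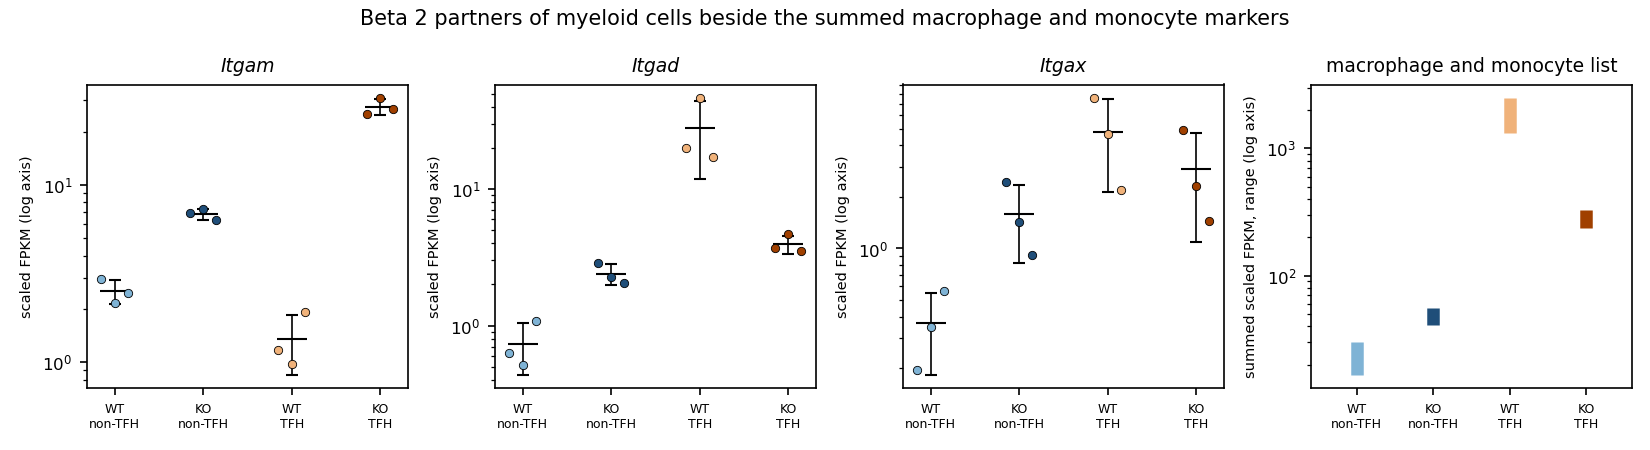
The first 3 panels plot Itgam, Itgad and Itgax in scaled FPKM (log axis), with a point per library and the mean and SD as bars. The last panel plots the range over 3 libraries of the summed level of 15 macrophage and monocyte markers, which leave out Lyz2 (log axis). From WT TFH to KO TFH libraries Itgam went from 1.35 to 27.6, while Itgad went from 27.8 to 3.97 and the marker sum from 1330 to 2470 to 237 to 330.

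Itgal encodes alpha L, CD11a, which with beta 2 forms LFA-1, the main ICAM-1 receptor of T cells. It was at 124, 129 and 121 in WT non-TFH, 97.8, 98.5 and 105 in KO non-TFH, 227, 182 and 209 in WT TFH and 211, 191 and 208 in KO TFH libraries. Both TFH groups stood high and overlapped, and KO non-TFH stood lowest. In TFH cells the KO against WT difference did not pass (-0.01, 95% interval -0.21 to 0.18, adjusted p = 0.946). In non-TFH cells Itgal fell by 0.31 ± 0.09 on the log2 scale (adjusted p = 0.0271). That call was lost without WT non-TFH replicate 1 (adjusted p = 0.0734), 2 (0.0967) or 3 (0.0551), without KO non-TFH replicate 1 (0.0896) or 2 (0.0868), without scaling between libraries (0.0929) and without variance trend and robust moderation (0.0652).

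Itgb2, the common beta 2 chain, CD18, was at 190, 192 and 187 in WT non-TFH, 306, 271 and 255 in KO non-TFH, 328, 301 and 277 in WT TFH and 175, 176 and 183 in KO TFH libraries. It was high in KO non-TFH and WT TFH, which overlapped, and low in the other two groups. Under KO it rose by 0.54 ± 0.08 on the log2 scale in non-TFH cells (adjusted p = 0.000677) and fell by 0.76 ± 0.08 in TFH cells (adjusted p = 5.35e-05). Macrophages express Itgb2 too. The macrophage sum was higher in WT TFH than in KO TFH libraries and higher in KO than in WT non-TFH libraries, the same directions as Itgb2. Among KO libraries the directions differed. There the macrophage sum was higher in TFH (237 to 330) than in non-TFH libraries (41.2 to 55.2), and Itgb2 was lower in TFH libraries. The part of macrophage RNA in the Itgb2 values was not tested. The ratio of Itgal to Itgb2 was 0.66 ± 0.0122 in WT and 0.365 ± 0.0468 in KO non-TFH cells and 0.683 ± 0.0758 in WT and 1.14 ± 0.06 in KO TFH cells (SD, n = 3). The ratio of Itgam to Itgb2 went from 0.00458 ± 0.00205 to 0.155 ± 0.0174 in TFH cells.

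Itgb1 encodes beta 1, the partner of alpha 4 in VLA-4, of alpha 6 in a laminin receptor and of several collagen receptors. It was listed at 12.9, 15.2 and 13.9 in WT non-TFH, 29.2, 36.6 and 29.1 in KO non-TFH, 135, 184 and 255 in WT TFH and 360, 317 and 354 in KO TFH libraries. The groups did not overlap, and each TFH group stood above both non-TFH groups. Under KO it rose by 1.12 ± 0.19 on the log2 scale in non-TFH (adjusted p = 0.00116) and by 0.89 ± 0.19 in TFH cells (adjusted p = 0.00395). The ratio of Itga4 to Itgb1 went from 5.74 ± 0.32 in WT non-TFH and 0.841 ± 0.187 in KO non-TFH to 0.203 ± 0.0133 in WT TFH and 0.0632 ± 0.00785 in KO TFH cells (SD, n = 3), with no overlap between groups.

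Itga6, alpha 6, CD49f, was at 38.5, 40.3 and 38.5 in WT non-TFH, 19.0, 17.2 and 19.4 in KO non-TFH, 2.75, 4.05 and 2.12 in WT TFH and 2.0, 1.73 and 1.31 in KO TFH libraries. No groups overlapped and WT stood above KO in both cell types. It fell under KO by 1.04 ± 0.17 on the log2 scale in non-TFH cells (adjusted p = 0.00117). In TFH cells it fell by 0.55 ± 0.17 (adjusted p = 0.0335), a call that was lost without WT non-TFH replicate 1 (adjusted p = 0.0523), 2 (0.0514) or 3 (0.0517), without WT TFH replicate 1 (0.0503) or 2 (0.0965, log2 change -0.36), and without KO TFH replicate 2 (0.0584) or 3 (0.111). It was also lost with quantile normalization (0.0644) and with only the 2 groups fitted (0.217). The deposited bounds of WT TFH replicate 2 were wide, 0 to 17.9 FPKM around 4.52.

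Itgav, alpha V, which binds RGD ligands and with some beta chains frees active TGF-beta, was at 4.75, 5.71 and 4.47 in WT non-TFH, 5.25, 5.70 and 5.79 in KO non-TFH, 6.45, 7.45 and 6.55 in WT TFH and 2.39, 2.78 and 2.43 in KO TFH libraries. WT TFH libraries stood highest and KO TFH libraries lowest, apart from the rest, and both non-TFH groups overlapped. It fell under KO by 1.15 ± 0.14 on the log2 scale in TFH cells (adjusted p = 9.75e-05), where the macrophage sum was also lower. The part of macrophage RNA in that fall was not tested. The deposited bounds of KO TFH replicate 3 were wide, 0 to 31.2 FPKM around 2.76. The non-TFH difference did not pass (0.14, 95% interval -0.16 to 0.45, adjusted p = 0.563).

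Itgb3, beta 3, CD61, a partner of alpha V, was at 39.4, 39.0 and 38.7 in WT non-TFH, 39.4, 45.6 and 43.9 in KO non-TFH, 3.23, 3.53 and 3.37 in WT TFH and 5.70, 3.44 and 3.53 in KO TFH libraries. The genotypes overlapped in both cell types. The KO against WT difference did not pass in non-TFH (0.13, 95% interval -0.20 to 0.47, adjusted p = 0.639) or TFH cells (0.23, 95% interval -0.11 to 0.57, adjusted p = 0.289). Beta 3 also pairs with alpha IIb on platelets. Itga2b, which encodes that chain, was at 1.69 ± 0.421 in WT non-TFH and 3.16 ± 0.645 in KO non-TFH cells and at 0.22 ± 0.0976 in WT TFH and 0.491 ± 0.476 in KO TFH cells. It was lower in TFH cells in both genotypes, as Itgb3 was (log2 change -1.13, adjusted p = 0.00147 in WT, and -1.52, adjusted p = 0.000421 in KO mice). Gp1ba, a platelet glycoprotein and the other platelet marker tested, was at 1.35 ± 0.194 in WT non-TFH and 0.079 ± 0.0827 in WT TFH cells. In KO mice it was at 0.719 ± 0.632 in non-TFH and 0.179 ± 0.159 in TFH cells, a difference that did not pass. The 5 summed platelet markers without Itga2b were at 1.29 to 2.18 in WT non-TFH, 0.46 to 2.0 in KO non-TFH, 1.1 to 1.96 in WT TFH and 0 to 8.89 in KO TFH libraries. Listed at 0 in all libraries of a group were Ppbp in WT non-TFH, Gp6 in KO non-TFH and Gp9 in WT TFH cells. The part of platelet RNA in the Itgb3 values was not tested.

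**Figure D4:**
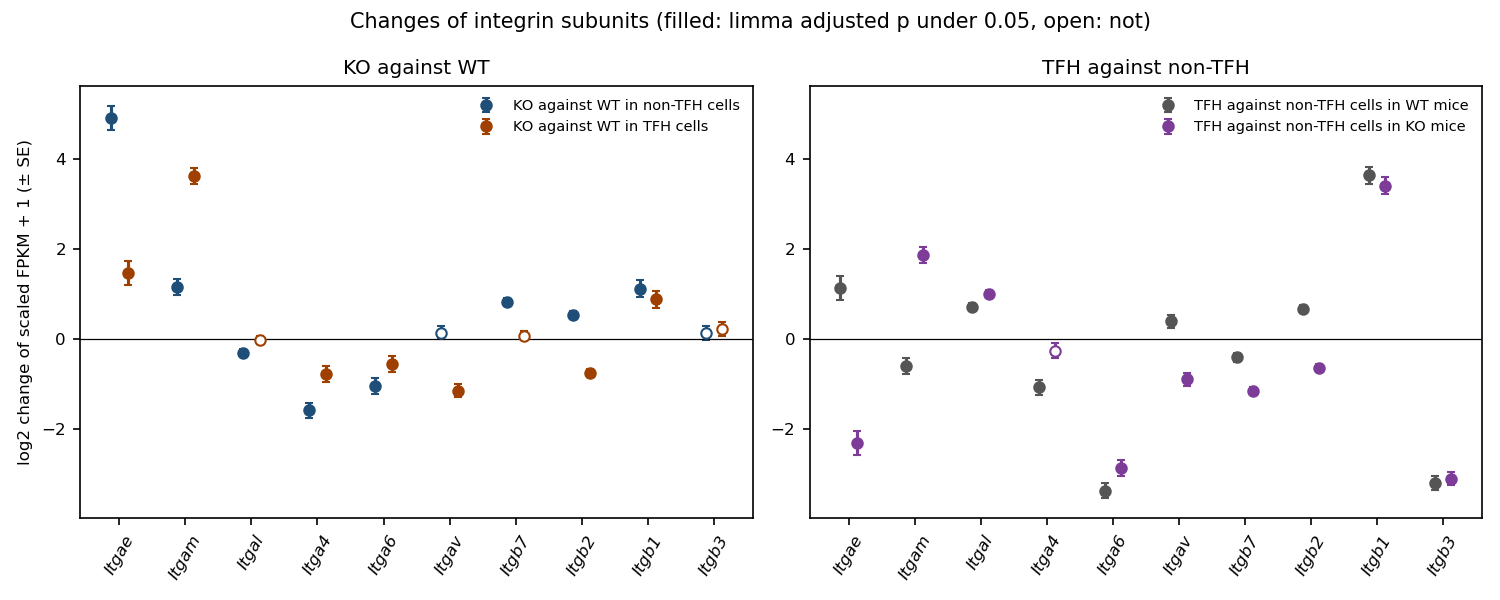
Log2 changes of scaled FPKM + 1 with their SE for KO against WT (left) and TFH against non-TFH cells (right). Filled points passed the test and open points did not. Itgae in non-TFH cells (4.92) and Itgam in TFH cells (3.62) lay farthest from 0 on the left, and on the right Itgb1 (3.64 and 3.41) lay far above 0 and Itgb3 and Itga6 far below in both genotypes.

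The second comparison asks which subunits set the follicular helper cells apart from the other CD4 cells of the same genotype. Among WT libraries TFH cells had 5 of the 10 subunits at a higher and 5 at a lower level, where 67.6% of all features passed (35.3% higher, 32.2% lower), and the groups did not overlap for all 10, as for 71.8% of features. In KO mice 3 were higher, 6 lower and 1 did not pass, where 67.2% of features passed (33.6% higher, 33.6% lower), and again no groups overlapped for the 10, as for 73.4% of features. The 2 comparisons use separate libraries. With so many features called, the counts of members say little and the sizes carry the description. The scaling matters here: without it the median of all features rose by 0.32 (WT) and 0.25 (KO) on the log2 scale, and the share of higher genes among those called went from 52.3% to 64.6% in WT and from 49.9% to 60.4% in KO mice. Changes are therefore relative to the median gene.

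Itgb1 was higher in TFH cells by 3.64 ± 0.19 on the log2 scale in WT (13.7-fold, adjusted p = 1.37e-08) and by 3.41 ± 0.19 in KO mice (10.9-fold, adjusted p = 2.35e-08). Its alpha 4 and alpha 6 partners went the other way. Itga6 fell by 3.36 ± 0.17 in WT (13.1-fold lower, adjusted p = 1.47e-08) and by 2.87 ± 0.17 in KO mice (adjusted p = 5.2e-08), and the ratio of Itga6 to Itgb1 went from 2.80 ± 0.17 in WT non-TFH to 0.0169 ± 0.00747 in WT TFH cells (SD, n = 3). Itga4 was lower in TFH cells of WT mice by 1.07 ± 0.17 (SE; log2 change -0.70 without scaling; main adjusted p = 0.000139). Its difference in KO mice did not pass (-0.26, 95% interval -0.63 to 0.11, adjusted p = 0.196).

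Itgb3 fell in TFH cells by 3.19 ± 0.15 on the log2 scale in WT (11.6-fold lower, adjusted p = 8.37e-09) and by 3.10 ± 0.15 in KO mice (adjusted p = 1.07e-08). Its partner Itgav was higher in TFH cells of WT mice by 0.39 ± 0.14 (0.71 without scaling) and lower in those of KO mice by a log2 change of -0.90 ± 0.14 (adjusted p = 0.00013). The WT call (adjusted p = 0.027) was lost without WT non-TFH replicate 1 (0.0855) or 3 (0.106) and without WT TFH replicate 2 (0.0687), and with only the 2 groups fitted (0.0642). The ratio of Itgav to Itgb3 was 0.127 ± 0.0166 in WT non-TFH and 2.02 ± 0.0849 in WT TFH cells (SD, n = 3).

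Of the beta 2 family, Itgal was higher in TFH cells in both genotypes, by 0.71 ± 0.09 on the log2 scale in WT (adjusted p = 2.06e-05) and 1.01 ± 0.09 in KO mice (adjusted p = 1.05e-06). Quantile normalization gave 0.26 and 0.51 in place of these. Itgb2 was higher in TFH cells of WT mice by 0.67 ± 0.08 (adjusted p = 2.35e-05; 1.04 without scaling, 0.19 with quantile normalization) and lower in those of KO mice by a log2 change of -0.63 ± 0.08 (adjusted p = 3.63e-05; -0.33 and -1.17). All 16 macrophage markers tested were higher in WT TFH than in WT non-TFH cells, with a median log2 change of 4.88. In KO mice 12 of them were higher in TFH cells, 1 was lower and 3 did not pass, with a median of 1.82. All 8 B cell markers tested were higher in TFH cells in both genotypes, with medians of 2.46 in WT and 1.67 in KO mice. The part of either cell type in the TFH against non-TFH values of the subunits was not tested. Itgam fell in TFH cells of WT mice by 0.60 ± 0.17 (adjusted p = 0.00906; -0.36 and 0.0955 without scaling) and rose in those of KO mice by 1.86 ± 0.17 (adjusted p = 1.75e-06).

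Of the beta 7 pairs, Itgae rose in TFH cells of WT mice by 1.14 ± 0.27 on the log2 scale (adjusted p = 0.00239) and fell in those of KO mice by 2.30 ± 0.27 (adjusted p = 1.09e-05). Itgb7 was lower in TFH cells of KO mice by a log2 change of -1.15 ± 0.09 (adjusted p = 4.51e-07). In WT mice its log2 change was -0.41 ± 0.09 (adjusted p = 0.00178), which depended on the scaling: it was -0.04 (adjusted p = 0.74) without scaling and -0.91 with quantile normalization.

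The third comparison, the interaction, asks whether the KO against WT change differs between the cell types, and is the change in TFH minus that in non-TFH cells. Of the 10 subunits, 2 had a positive difference, 4 a negative one and 4 did not pass, where 17.4% of all features passed (6.86% positive, 10.5% negative). The change of Itgae was smaller in TFH cells by a log2 difference of -3.44 ± 0.38 (adjusted p = 0.000102) and that of Itgam larger by 2.46 ± 0.25 (adjusted p = 5.34e-05). Itgb2 moved in opposite directions, with a difference of -1.30 ± 0.12 (adjusted p = 3.17e-05). Itgav had -1.29 ± 0.20 (adjusted p = 0.00097) and Itgb7 -0.74 ± 0.13 (adjusted p = 0.00212). Itga4 had 0.81 ± 0.24 (adjusted p = 0.0368), a call lost without any 1 library of non-TFH or KO TFH cells or WT TFH replicate 2 (adjusted p up to 0.0902), without a filter on low values (0.0613) and without scaling (0.0521). The differences of Itgal (0.30, 95% interval 0.02 to 0.57, adjusted p = 0.133), Itgb1 (-0.23, -0.81 to 0.35), Itgb3 (0.10, -0.38 to 0.57) and Itga6 (0.49, -0.05 to 1.04) did not pass. That of Itga6 passed without WT TFH replicate 2 (adjusted p = 0.0415).

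Across the 12 libraries, the genes most like Itgae in scaled log2 level, of 10068 compared, were Lysmd2 (Pearson's r = 0.97), Ccr9 (0.96) and Tmem104 (0.96). For Itgam they were Arpp21 (0.97), Chrna9 (0.97) and Ccne1 (0.96), for Itgal Map2k1, Atad2 and Tox4 (each 0.99) and for Itgb7 Tob1, Ggt1 and Pmepa1 (each 0.99). These r describe a pattern over 4 groups of libraries that share their sort and scaling, and carry no test.

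Of 16 further integrin subunit genes, 8 reached the level tested, 7 stayed below it (highest level 1.57 scaled FPKM) and Itga10 had no entry of its own. Under KO 1 rose and 2 fell of the 8 in non-TFH cells and 3 fell in TFH cells, where 20.4% and 30.9% of all features passed. Their median log2 change was 0.10 and -0.49. The one that rose in non-TFH cells was Itgad (0.97 ± 0.31 on the log2 scale, 0.74 ± 0.303 to 2.40 ± 0.433, adjusted p = 0.0421), a call lost without any 1 library of non-TFH or KO TFH cells (adjusted p up to 0.139 over all alternatives). In non-TFH cells Itga7, alpha 7, a laminin receptor chain, fell by 1.72 ± 0.23 on the log2 scale (4.44 ± 0.872 to 0.644 ± 0.0538, adjusted p = 0.000208). Itga5, alpha 5 of the fibronectin receptor, fell there by 1.22 ± 0.23 (2.93 ± 0.429 to 0.69 ± 0.289, adjusted p = 0.00257), a call lost at a pseudocount of 0.1 (log2 change -1.99, adjusted p = 0.0746). In TFH cells Itgad fell, as given above, Itga7 fell by 0.94 ± 0.23 (adjusted p = 0.00889, and 0.0623 with only the 2 groups fitted) and Itgb5, beta 5, fell by 0.72 ± 0.19 (1.67 ± 0.548 to 0.61 ± 0.165, adjusted p = 0.014), a call lost without KO TFH replicate 3 (adjusted p up to 0.123 over all alternatives). Itgb8, a partner of alpha V, was at 11.6 ± 3.64 in WT TFH and 8.67 ± 3.95 in KO TFH cells and under 0.1 on average in non-TFH cells of both genotypes, and its KO against WT difference in TFH cells did not pass (adjusted p = 0.277).

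Among genes that switch integrins on or tie them to the cytoskeleton, 35 of 42 were tested. In non-TFH cells 7 rose, 6 fell and 22 did not pass, with a median log2 change of 0.14, and in TFH cells 3 rose, 8 fell and 24 did not pass, with a median of -0.04. The shares of the 35 that passed stand beside 20.4% and 30.9% of all features, and the medians beside 0.03 and 0.04. Tns4, a tensin that binds beta tails, was at 0.333, 0.136 and 0.158 in WT non-TFH and at 131, 121 and 123 in KO non-TFH libraries, a log2 change of 6.71 ± 0.14 (adjusted p = 1.16e-10), and rose by 1.86 ± 0.14 in TFH cells (adjusted p = 3.59e-06). Rap1gap2, which switches off the integrin activator Rap1, went from 0.695 ± 0.077 to 16.8 ± 1.46 in non-TFH cells (adjusted p = 1.18e-06). Its difference in TFH cells did not pass (0.56 ± 0.23, adjusted p = 0.0903). Rap1a, a gene of Rap1 itself, also rose in non-TFH cells, by 0.57 ± 0.16 (adjusted p = 0.022). So did Rhoh, by 1.28 ± 0.25 (adjusted p = 0.00299), and Tns1, by 1.20 ± 0.19 (adjusted p = 0.000757). Talin 1 (Tln1), which opens the integrin from inside, fell by 0.85 ± 0.19 in non-TFH (144.7 ± 2.45 to 80.1 ± 6.86, adjusted p = 0.00861) and by 1.19 ± 0.19 in TFH cells (75.4 ± 24.8 to 31.2 ± 2.41, adjusted p = 0.000772). Rasgrp2, the exchange factor that loads Rap1, fell by 1.43 ± 0.24 in TFH cells (28.3 ± 5.03 to 10.5 ± 5.12, adjusted p = 0.00105) and by 0.82 ± 0.24 in non-TFH cells (adjusted p = 0.0334).

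Of 22 ligand genes 13 were tested. In non-TFH cells 3 rose, 3 fell and 7 did not pass, with a median log2 change of 0.20, and in TFH cells 2 rose, 6 fell and 5 did not pass, with a median of -0.34, against the same 20.4% and 30.9% of all features passed and medians of 0.03 and 0.04. Thy1, a T cell surface protein that binds beta 2 and beta 3 integrins, was at 299, 296 and 299 in WT non-TFH and 28.8, 31.1 and 26.9 in KO non-TFH libraries and fell by 3.32 ± 0.16 on the log2 scale (adjusted p = 7.02e-08). In TFH cells it fell by 3.67 ± 0.16 (42.1, 27.9 and 27.5 to 1.53, 1.30 and 1.94, adjusted p = 5.19e-08). Icam1, the ligand of LFA-1 and Mac-1, fell by 0.74 ± 0.13 in non-TFH (12.7 ± 0.218 to 7.22 ± 0.328, adjusted p = 0.00202) and by 0.88 ± 0.13 in TFH cells (46.1 ± 8.8 to 24.2 ± 0.853, adjusted p = 0.000465). Vcam1, the ligand of alpha 4 beta 1 and itself on the macrophage list, fell by 2.93 ± 0.28 in TFH cells (185, 372 and 189 to 41.2, 27.5 and 24.0, adjusted p = 1.68e-05).

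TGF-beta induces Itgae in T cells, and all 13 genes of its receptors and signalling were tested. In non-TFH cells 2 rose, 2 fell and 9 did not pass, with a median log2 change of -0.14, and in TFH cells 1 rose, 5 fell and 7 did not pass, with a median of -0.45, where again 20.4% and 30.9% of all features passed, with medians of 0.03 and 0.04. Tgfbr1, the type I receptor, was at 11.4, 10.9 and 9.42 in WT non-TFH and 29.4, 36.2 and 31.6 in KO non-TFH libraries and rose by 1.53 ± 0.22 on the log2 scale (adjusted p = 0.000439). Its difference in TFH cells did not pass (-0.29 ± 0.22, adjusted p = 0.36), and the difference between the cell types passed (-1.82, adjusted p = 0.00214). Smad3, the transcription factor the receptor activates, rose by 0.87 ± 0.16 in non-TFH (16.3 ± 1.17 to 30.4 ± 1.35, adjusted p = 0.00256) and by 0.92 ± 0.16 in TFH cells (6.05 ± 0.639 to 12.6 ± 3.52, adjusted p = 0.0013). The 2 genes that fell in non-TFH cells were Tgfb1 and Runx1. Tgfb1, a gene of TGF-beta itself, fell by 0.54 ± 0.17 (38.2 ± 2.05 to 25.9 ± 1.16, adjusted p = 0.0463). Runx1 fell by 0.43 ± 0.11 (17.9 ± 0.110 to 13.1 ± 0.710, adjusted p = 0.0151). Tgfbr3, the co-receptor betaglycan, fell by 1.495 ± 0.20 in TFH cells (11.9 ± 3.21 to 3.54 ± 1.01, adjusted p = 0.000172), and Runx3, a factor with a known role at Itgae in CD8 T cells, by 0.96 ± 0.20 (5.22 ± 0.464 to 2.29 ± 0.949, adjusted p = 0.00319).

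**Figure D5:**
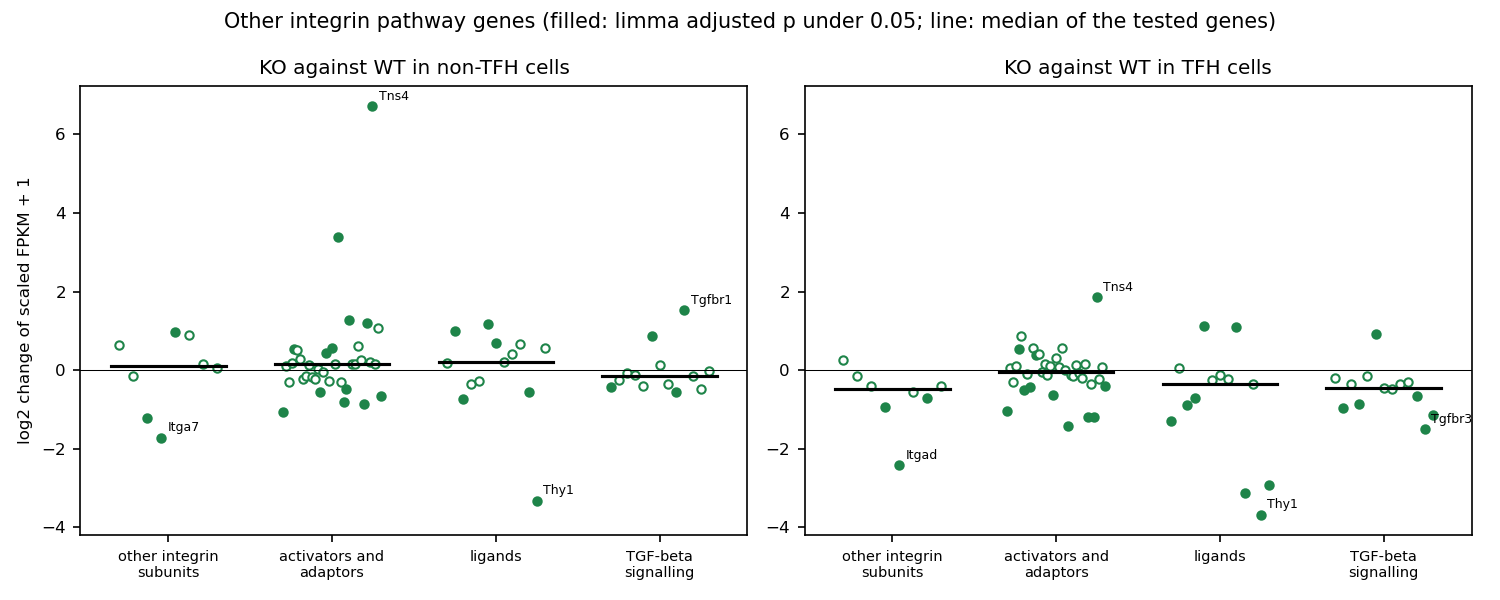
Log2 changes of scaled FPKM + 1 under KO in non-TFH (left) and TFH cells (right) for 4 lists of other integrin pathway genes, a point per gene, filled where the test was passed, with the median of the tested genes as a line and the farthest called gene of each list named. Tns4 (6.71) lay farthest from 0 in non-TFH cells, followed by Rap1gap2 (3.39) and Thy1 (-3.32), and Thy1 (-3.67) lay farthest in TFH cells, while the medians lay between -0.49 and 0.20.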

How the data were processed

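Strand-specific poly(A) RNA sequencing libraries, per the labels' protocols, were deposited by the authors as FPKM per gene with 95% bounds, in 1 Cufflinks gene tracking table per library, per the file headers. Per the submitters' processing notes, the tools included cutadapt, FastQC, Bowtie2, TopHat2, Cufflinks and Cuffdiff, with the build mm10. No version or setting is given in the sources used here. The tables hold no counts, so depth was estimated from FPKM and its bounds at unnamed loci over 1500 bp, and no counting interval was drawn.

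The 10 genes, the other gene lists and the tests were chosen with earlier results of these data known. Genes that shared an entry in some libraries were summed into joint features, none of which is named here. Scaling used the median ratio over 7166 features (factors 0.857 to 1.14), and a feature was tested if at least 3 libraries reached 1 scaled FPKM. The scale log2(scaled FPKM + 1) understates changes of low genes. A single limma 3.58.1 fit (R 4.3.3; variance trend, robust moderation) took group means over the 12 libraries, and p-values were Benjamini-Hochberg adjusted over 11098 features to 0.05. The fit was tested on simulated data. Named are all 10 subunits, and from each other list called genes among the 4 with the largest changes in a comparison. Itgax, Itgb8, Itga2b, Ccr9, Eomes, Lyz2 and the other single markers were named after their values were seen. So were Icam1, Icam4, Lamc1, Mfge8, Rap1a, Rasgrp2 and Tln1 where they fell outside the rule of the 4 largest changes. Alternatives were pseudocounts of 0.1 and 0.5, no filter or one of 5 FPKM, no scaling, quantile normalization, no trend, array weights, fits to 2 groups, replicate blocks and leaving out each library. Replicates differed by 1.83 to 2.09 times the spread their bounds give in non-TFH and by 3.35 to 3.96 times in TFH groups. The fit used a single spread per gene over both cell types. Each library was counted as a sample, though the spread does not show whether libraries came from separate mice. Other software was numpy 2.4.6, pandas 2.3.3, matplotlib 3.10.9 and Python 3.11.15.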

Additional observations from a re-analysis of the deposited data

Results flagged for a closer look

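The change under KO differed between TFH and non-TFH cells for 6 of the 10 integrin subunits, by limma's test of the difference itself (log2 change in TFH minus that in non-TFH cells, adjusted over all features), where 17.4% of all features passed. For Itgae the difference was -3.44, with the larger rise in non-TFH cells, and for Itgb7 -0.74, with a rise in non-TFH cells and a difference that did not pass in TFH cells. For Itgam it was 2.46, with the larger rise in TFH cells. Itgb2 had -1.30, with a rise in non-TFH and a fall in TFH cells, and Itgav -1.29, with a fall in TFH cells and a difference that did not pass in non-TFH cells. For Itga4 it was 0.81, with the larger fall in non-TFH cells, a value that did not keep its call under several alternatives. The macrophage marker sum also moved differently, higher under KO in non-TFH and lower in TFH cells, and its part was not tested.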

How the results depend on the processing

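Each of the 50 member values with a test was recomputed under 22 or 23 alternatives, and none of the 40 called values changed sign. Of these 40, 34 stayed past the threshold under every alternative run and 6 did not: Itga6 (KO against WT, TFH cells; adjusted p 0.00861 to 0.217), Itgal (KO against WT, non-TFH cells; 0.00126 to 0.0967), the TFH against non-TFH changes in WT mice of Itgam (up to 0.0955), Itgb7 (up to 0.74) and Itgav (up to 0.106), and the interaction of Itga4 (up to 0.0902). Of 10 values not called, 1 passed under an alternative, the interaction of Itga6 (0.0415). Genes called for KO against WT numbered 3432 in TFH cells, 2270 with array weights and 2208 with only the 2 groups fitted. In non-TFH cells they numbered 2266, 4110 with array weights and 3638 with only the 2 groups. The cause was not tested. Leaving out 1 library gave 2833 to 3229 and 1631 to 2467 genes, with 6 to 7 and 7 to 8 members called. For TFH against non-TFH cells it gave 6908 to 7546 genes in WT and 6848 to 7628 in KO mice, with 9 to 10 and 9 members, and for the interaction 1472 to 1975 genes with 5 to 6 members.

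Replicate numbers showed no clear pairing of the samples: same-numbered deviations correlated at -0.035 to 0.0589. Of 36 comparisons, each with 3 numbers to choose from, 17 matched a sample best with its own number. TFH and non-TFH libraries of a genotype carry the same numbers in their titles. Low correlations cannot exclude that they came from the same mice. With the replicate number as a block 3255 (TFH) and 2113 (non-TFH) genes were called for KO against WT, and 7 and 8 members. The interaction of Itga4 was not called under either block (adjusted p = 0.05 and 0.0585), nor was Itgav for TFH against non-TFH cells in WT mice under the block by genotype and number (0.0656). Wide deposited bounds of Itgae and Itgam in non-TFH libraries, Itgav in KO TFH replicate 3 and Itga6 in WT TFH replicate 2 limit how well the size of their folds is known.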
